A study of Mus musculus with 43 samples.

Results

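The 7 lung libraries of this study from mice that received saline, not house dust mite, differed widely in Clca1, a secreted protein of goblet cells. They were grouped by their Clca1 level: 3 libraries above 100 CPM and 4 below it, where CPM is a gene's count scaled to a common library total (here the plain column total), of 43 libraries in all. Lung mRNA was sequenced in strand-specific libraries made from total RNA. All mice carried the genotype Il33hu/hu on a background of C57BL/6NTac (75%) and 129S6SvEvTac (25%). Beside saline (7 libraries), the mice received house dust mite (HDM), an airway allergen, for 4 weeks (10 libraries), for 15 weeks (7), for 15 weeks with an isotype control antibody (4) or for 15 weeks with an anti-IL-33 antibody (15). The labels give the saline libraries no time point, so a difference in age or time in the study among them cannot be told apart from the Clca1 difference. They do not say how many mice a library holds, so errors and p-values here measure the spread between libraries.

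Goblet cells are the mucus-making cells of the airway lining. They arise mainly from club cells when interleukin 13 (IL-13) and IL-4 signal through the transcription factor STAT6, which leads to expression of the factors Spdef and Foxa3 and of the mucin Muc5ac. The unexposed airways of laboratory mice are known to hold few such cells. In whole-lung RNA, fewer cells of a type and less RNA per cell cannot be told apart.

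In column-total CPM, Clca1 stood at 351.6, 789.98 and 447.58 in saline libraries 1, 3 and 5, and at 0.70, 3.43, 26.1 and 1.13 in libraries 2, 4, 6 and 7. Library 1 was the one just inside the threshold and library 6 the one just outside it. Library 6 was the highest of the low libraries, while the other low libraries held 5 to 35 reads of the gene. These values chose the groups and are a description only. For the same reason no p-value is given for any gene between the 2 sets of saline libraries. A gene is called separated here when the 3 high and 4 low libraries did not overlap and the fitted log2 fold change was at least 1 in size. All further levels are CPM scaled by TMM, a library-size correction, and log2 fold changes are the high libraries over the low ones with the standard error of edgeR's fit. CPM is not divided by gene length, so levels are compared between libraries and not between genes.

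Of 15597 genes tested, Clca1 left out, 81 were separated with higher levels in the high libraries (0.519%) and 18 with lower levels (0.115%). The 81 included mucus genes, products of alternatively activated macrophages, type 2 and neutrophil chemokines, and the cytokine genes Il13 and Il5. Without the fold threshold, 701 genes were higher without overlap (4.49%) and 497 lower (3.19%). With 3 against 4 libraries, genes unrelated to Clca1 can also lie without overlap, so these shares are not read as genes that go with Clca1. Many of the 81 were scarce transcripts: 32 of them averaged 2 CPM or more in the high libraries, and 27 held at most 12 reads in the 4 low libraries together. Library 3 was the highest of the 7 in 42 of the 81 genes, and library 6 was the low library nearest the high ones in 27.

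Total counts ran from 7090950 to 12414078 in the saline libraries and from 4795214 to 12599467 in the HDM libraries. The alveolar markers of the labelled tissue were abundant in every saline library, with Sftpc, the surfactant protein C gene of alveolar type 2 cells, at 7684 to 10870 CPM. No 2 saline libraries agreed within sampling noise. Sample numbers in the labels were divided here at 810000 into 2 ranges, and the labels do not say what the numbers stand for. Each range held both kinds of saline library, with libraries 1 and 2 in the first and the other 5 in the second. In the first range this rests on library 1, whose number (798869) stood apart from the rest (801638 to 801680). Among those numbers library 2 was the only saline library. Library 3 also had the highest levels of the club cell gene Scgb1a1 (23818 CPM against 13274 to 16475 in the other 6) and of the ciliated cell gene Foxj1 (158 CPM against 63.1 to 97.1). The part of these airway markers in the values of library 3 was not tested.

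Of 39 genes in a list of goblet and mucus genes, 37 were in the count table and 32 passed the filter on low counts. Of these, 9 were separated, all with higher levels in the high libraries: Muc5ac, Fcgbp, Agr2, Foxa3, Slc26a4, Pigr, Dmbt1, Capn9 and Scin. The median log2 fold change of the 32 was 0.67, against 0.005 over all genes tested, and 29 were above 0. With Capn9 and Itln1, which had no read in the low libraries, at their lower bounds the median was 0.67. Spdef and Qsox1 did not overlap either but fell short of the fold threshold. Because the groups were set by a goblet gene of the same libraries, these counts describe the libraries and support nothing further.

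Muc5ac, the gel-forming mucin of induced airway goblet cells, (chr7:141788958-141819227, GRCm38) stood at 6.07, 30.1 and 21.9 CPM in high libraries 1, 3 and 5. In low libraries 2, 4, 6 and 7 it stood at 2.249, 2.03, 5.78 and 1.70 CPM, for a log2 fold change of 2.72 ± 0.65. Libraries 3 and 5 were far above the rest, and library 1 lay barely above library 6, without which the log2 fold change was 3.32. Muc5b, the mucin made in the resting airway too, stood at 106, 227 and 274 CPM against 70.2, 72.1, 117 and 52.1 CPM. Library 6 exceeded library 1 in this gene, so the groups overlapped (1.38 ± 0.41). Fcgbp, a mucus protein that binds the Fc part of IgG, stood at 13.99, 69.2 and 31.9 CPM in the high libraries and at 4.23, 4.61, 5.78 and 2.93 CPM in the low ones (3.14 ± 0.58). The low libraries were close together and the high ones ranged widely, and without library 3 the log2 fold change was 2.41.

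Of the factors that direct goblet differentiation, Foxa3 stood at 0.40, 1.39 and 0.76 CPM in the high libraries and at 0.13, 0.092, 0.086 and 0.23 CPM in the low ones (2.56 ± 0.62). It rested on 27 reads against 6. Spdef stood at 1.45, 2.88 and 2.02 CPM against 0.79, 1.29, 1.21 and 1.16 CPM (0.92 ± 0.32), so all 3 high libraries were higher by a smaller factor. Foxa2 and Nkx2-1, epithelial factors made across the lung epithelium, overlapped between the groups, with log2 fold changes of 0.26 ± 0.12 and 0.02 ± 0.10. Ern2, a sensor of endoplasmic reticulum stress in mucous cells, stood at 0.264, 2.04 and 1.43 CPM against 0.265, 0.276, 0.604 and 0.231 CPM, with library 1 inside the low range.

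Agr2, a disulfide isomerase needed to fold mucins, stood at 2.24, 5.75 and 2.69 CPM in the high libraries and at 0.40, 0.37, 0.78 and 0.46 CPM in the low ones (2.79 ± 0.42). No low library reached 1 CPM. Capn9, a calpain protease of mucus-secreting epithelia, was counted 31 times in the high libraries, at 0.40, 2.04 and 0.50 CPM, and never in the 4 low ones. Against a floor of 3 reads over the low libraries it was at least 14.7-fold higher. Without library 3, which held 22 of the reads, the bound was 6.61-fold. Scin, which severs actin filaments in secretory cells, stood at 2.90, 6.40 and 4.37 CPM against 1.98, 0.74, 1.38 and 1.54 CPM (1.73 ± 0.34). Dmbt1, a secreted glycoprotein that binds bacteria, stood at 0.40, 1.58 and 1.34 CPM against 0.13, 0, 0.17 and 0.15 CPM (3.19 ± 0.67).

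Slc26a4, the anion exchanger pendrin, stood at 21.9, 39.2 and 63.7 CPM in the high libraries and at 8.60, 9.03, 18.7 and 9.33 CPM in the low ones (1.87 ± 0.44). Here library 5 was the highest and library 6 came close to library 1. Pigr, the receptor that carries IgA across the epithelium, stood at 119, 241 and 158 CPM against 64.0, 63.3, 79.6 and 72.2 CPM (1.31 ± 0.22). Other secretory genes varied without separating the groups. The trefoil peptide gene Tff2 stood at 1.32, 11.3 and 8.82 CPM against 1.46, 2.30, 1.98 and 0.46 CPM. The lectin gene Itln1 was counted in libraries 3 and 5 alone, at 0.83 and 0.42 CPM. Bpifb1, a secreted protein of upper airway mucous cells, stood at 58.6, 134 and 84.0 CPM against 97.1, 34.8, 51.5 and 18.4 CPM. St6galnac1, which adds sialic acid to mucins, was higher in libraries 1 and 3 (1.58 and 1.39 CPM) and lay in the low range in library 5. The mucins anchored in the cell membrane, Muc1, Muc4 and Muc20, overlapped between the groups, with log2 fold changes of 0.28 ± 0.10, 0.42 ± 0.28 and 0.10 ± 0.15. Leaving out each saline library in turn gave 8 to 14 separated goblet genes and a median over the list from 0.46 to 0.89. The count of separated higher genes over all genes was then 99 to 168, against 81 with every library, since fewer libraries have to stay apart. Without library 3, Pigr was the only gene of the 9 that was lost. Without library 1, Muc5b, Spdef, Tff2, Ern2 and Itln1 were separated as well, in the setting with the 168 genes.

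**Figure D1:**
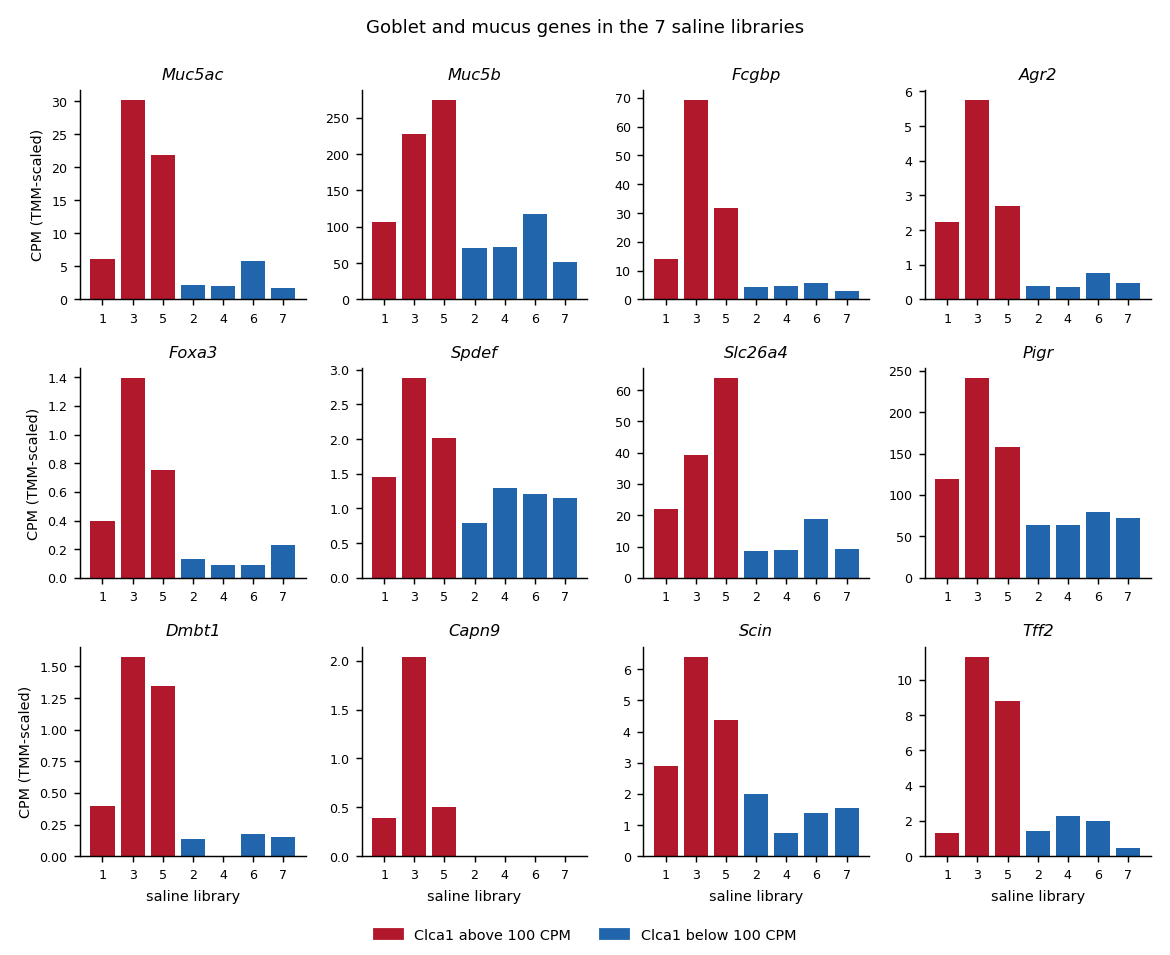
TMM-scaled CPM of 12 goblet and mucus genes in each saline library, 1 bar per library and a separate linear axis from 0 for each gene. The 3 libraries above 100 CPM of Clca1 are red and the 4 below are blue. Muc5ac in library 1 (6.07 CPM) is barely above library 6 (5.78 CPM), and Muc5b and Tff2 overlap between the groups.

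Some of the genes that airway epithelium and macrophages make in response to IL-4 and IL-13 were higher in the saline libraries with high Clca1, with Retnla the most abundant. In a list of 26 IL-13 response genes, of which 21 passed the filter, 5 were separated with higher levels (Chil4, Il13ra2, Ccl11, Duoxa1 and Retnla) and 1 with lower levels (Cdh26). Its median log2 fold change was 0.86, and 0.86 with uncounted genes at their bounds. The summed level of the list was 2387 to 3038 CPM in the high libraries and 753 to 885 CPM in the low ones. That sum rested on Retnla, Chil3 and Chil4: without them it was 526, 340 and 370 CPM in libraries 1, 3 and 5 and 366 to 412 CPM in the low ones, which overlapped. In a list of 14 alternatively activated macrophage genes, all of which passed, 4 were separated (Retnla, Chil4, Mmp12 and Ccl17), and the median was 0.88. Without Retnla, Chil3 and Chil4, which both lists hold, the macrophage list summed to 347, 152 and 333 CPM against 191 to 207 CPM, with library 3 below every low library.

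Retnla, which encodes the secreted protein RELM-alpha of type 2 inflamed airway and macrophages, stood at 767, 1620 and 690 CPM in high libraries 1, 3 and 5. In low libraries 2, 4, 6 and 7 it stood at 35.7, 47.8, 137 and 33.01 CPM (4.01 ± 0.69). It was the most counted of the separated genes, with 31499 reads in the high libraries, and library 6 was again the highest of the low ones. Without library 6 the log2 fold change was 4.72. Chil4, a chitinase-like protein, stood at 5.54, 117 and 5.63 CPM against 0.40, 0.092, 0.52 and 0.62 CPM (6.65 ± 1.82). Library 3 alone carried most of this difference, which was 3.71 ± 0.39 without it. Its close relative Chil3 stood at 1259, 309 and 1972 CPM against 371, 366, 249 and 440 CPM. Library 3 was thus in the low range for Chil3, and reads of near-identical copies such as these may be divided unevenly. The alveolar macrophage list, which holds Chil3, had a median log2 fold change of 0.08 with 8 of 14 genes above 0. Without Chil3 it summed to 1035, 627 and 903 CPM in libraries 1, 3 and 5 and to 813 to 868 CPM in the low libraries, with library 3 the lowest of all. The part of these cells in the Chil3 values was not tested.

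Mmp12, the macrophage elastase, stood at 19.1, 29.03 and 22.7 CPM in the high libraries and at 5.29, 7.46, 4.66 and 9.18 CPM in the low ones (1.81 ± 0.23). The high libraries were close together and clear of library 7, the highest low one. Rnase2a, of the eosinophil-associated ribonuclease family, stood at 3.69, 2.78 and 7.30 CPM against 0.26 CPM in library 6 and none in the other low libraries. Its rate ratio over 145 and 3 reads was 68.6 (95% exact interval 23.01 to 337, counting error only), and its family has close copies. Such intervals, here and below, pool the reads of each group and leave out the spread between libraries. They are given for genes already called separated, so they are no test of the difference. Arg1, another gene of alternatively activated macrophages, overlapped at 2.10 to 3.30 CPM against 2.12 to 3.01 CPM.

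The cytokine that drives goblet cells was near the limit of detection. Il13 was counted 3, 2 and 3 times in high libraries 1, 3 and 5 and not at all in the low libraries, at least 3.79-fold higher against a floor of 3 reads over those. Il5, which sustains eosinophils, was counted 10 times in the high libraries and 2 times in the low ones, a rate ratio of 7.10 (exact interval 1.51 to 66.6), with both of the latter in library 7. Il13ra2, a decoy receptor for IL-13, was counted 6 times in the high libraries and not in the low ones. Il4 was counted 9 times against 8 and overlapped. The mouse Il33 gene stood at 88.7, 59.6 and 133 CPM against 69.1, 63.5, 82.9 and 68.7 CPM and overlapped, and the sources used here do not say how reads of the humanised allele were assigned. The receptors and the transcription factor of the pathway were level: Il4ra, Il13ra1 and Stat6 had log2 fold changes of -0.04 ± 0.09, 0.12 ± 0.08 and 0.05 ± 0.07.

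Of 22 type 2 cytokine and chemokine genes, 20 passed the filter and 5 were separated, all higher: Il13, Il5, Ccl8, Ccl11 and Ccl17. Ccl11, the eosinophil attractant eotaxin, stood at 4.49, 7.61 and 6.80 CPM in the high libraries and at 1.46, 1.84, 1.73 and 2.16 CPM in the low ones (1.80 ± 0.24). Ccl8, a monocyte and type 2 cell attractant, stood at 2.64, 3.15 and 4.79 CPM against 0.26, 0.65, 1.21 and 0.46 CPM (2.40 ± 0.40). Ccl17, a ligand of the T helper 2 cell receptor Ccr4, stood at 11.3, 8.63 and 7.72 CPM against 1.85, 3.50, 5.52 and 1.93 CPM (1.49 ± 0.34). In all 3 genes the lowest high library was clear of the highest low one. Ccl22, a second Ccr4 ligand, did not overlap either, at 13.4 to 15.0 CPM against 3.84 to 10.7 CPM (0.96 ± 0.34). The summed level of the list overlapped, at 496 to 599 CPM against 455 to 521 CPM.

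Of 14 genes listed for neutrophil attraction and the IL-17 response, 12 passed, 2 were separated with higher levels (Cxcl5 and Saa3) and the median was 0.74. Cxcl5, a neutrophil attractant made by epithelium, stood at 1.32, 7.98 and 3.02 CPM against 0.40, 1.29, 1.04 and 0.77 CPM (2.21 ± 0.58), with library 1 just above library 4. Without library 3 its log2 fold change was 1.32. Saa3, an acute phase protein, stood at 1.19, 4.45 and 3.19 CPM against 0.53, 0.74, 0.52 and 1.003 CPM (2.06 ± 0.43). Lcn2, an iron-binding defence protein, stood at 96.0, 112 and 151 CPM against 73.9, 52.1, 76.9 and 68.9 CPM and did not overlap (0.82 ± 0.17). Of the marker genes of inflammatory cells that passed, 13 for neutrophils, 9 for eosinophils and 13 for mast cells or basophils, none was separated, where 0.519% of all genes were separated with higher levels. Their median log2 fold changes were -0.15, 0.21 and 0.10, and 1 neutrophil gene was higher without overlap. The eosinophil granule gene Prg2 stood at 0.37 to 0.53 CPM against 0.26 to 0.65 CPM.

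**Figure D2:**
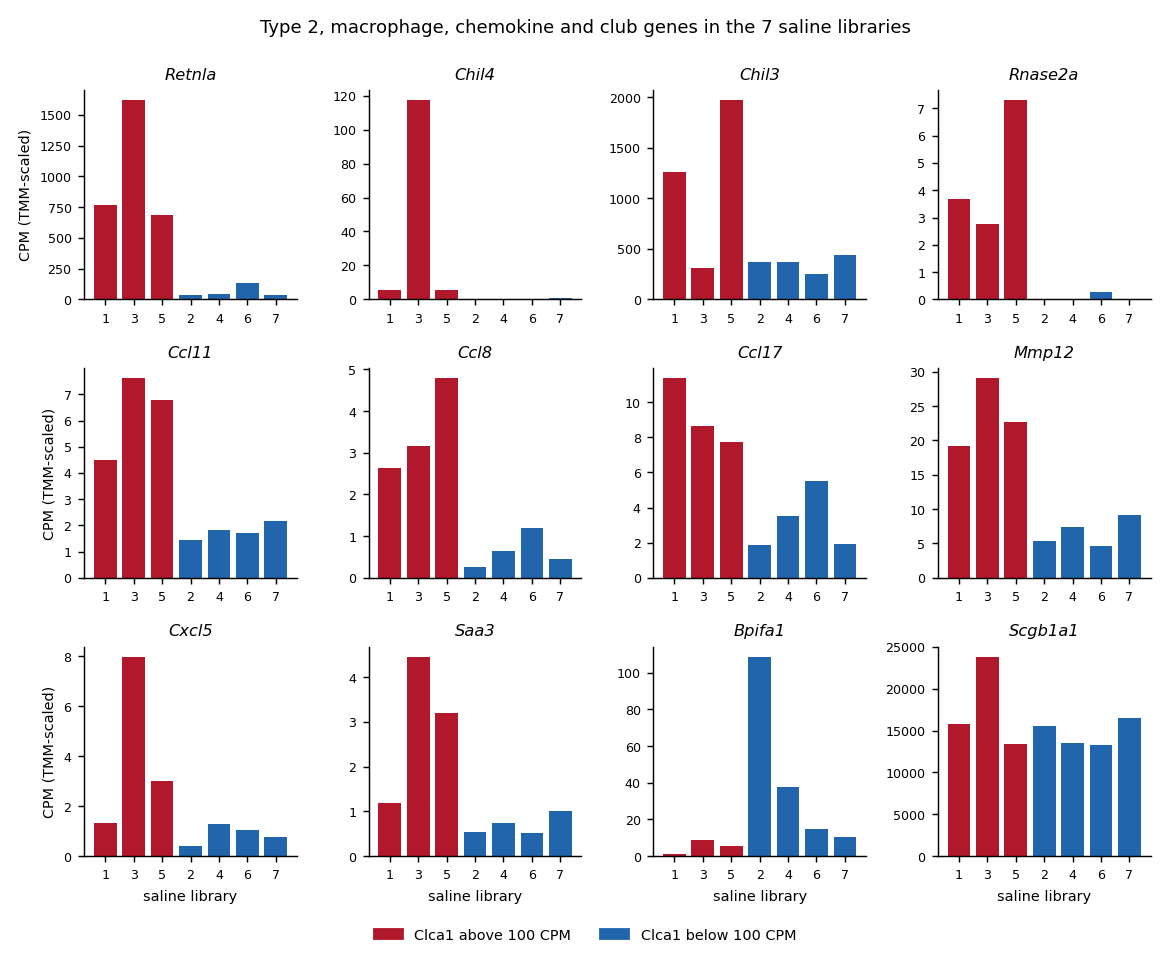
TMM-scaled CPM of 12 further genes in each saline library, drawn as for the goblet genes with linear axes from 0. Chil4 is dominated by library 3 (117 CPM), Chil3 is high in libraries 1 and 5 only, and Bpifa1 runs the other way, with library 2 at 109 CPM.

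The promoter sequences of 4 separated genes are shown because they include the gene with the most reads, Retnla, and the 3 goblet genes that also rose with Clca1 under HDM, as described below. For Capn9 the table's start lies 49 bases inside the gene as the annotation bounds it. Each is the 200 bases before the table's transcript start, 5′ to 3′ in the direction of the gene, from RefSeq's GRCm38.p6, with capitals marking a match to TTCNNNNGAA, the spaced palindrome that STAT6 binds.
Retnla, chr16:48842409-48842608, plus strand: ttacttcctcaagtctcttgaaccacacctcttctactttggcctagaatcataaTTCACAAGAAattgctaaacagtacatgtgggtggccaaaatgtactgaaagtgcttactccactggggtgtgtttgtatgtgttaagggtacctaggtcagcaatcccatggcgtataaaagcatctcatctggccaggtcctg
Capn9, chr8:124575911-124576110, plus strand: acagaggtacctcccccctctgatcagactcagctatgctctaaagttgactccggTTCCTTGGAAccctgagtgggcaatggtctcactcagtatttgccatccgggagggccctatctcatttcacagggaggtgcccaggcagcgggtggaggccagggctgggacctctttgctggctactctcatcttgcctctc
Fcgbp, chr7:28071036-28071235, plus strand: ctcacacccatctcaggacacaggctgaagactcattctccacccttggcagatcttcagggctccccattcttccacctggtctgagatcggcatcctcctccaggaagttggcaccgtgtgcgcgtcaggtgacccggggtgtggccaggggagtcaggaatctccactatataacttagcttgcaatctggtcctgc
Scin, chr12:40134229-40134428, minus strand: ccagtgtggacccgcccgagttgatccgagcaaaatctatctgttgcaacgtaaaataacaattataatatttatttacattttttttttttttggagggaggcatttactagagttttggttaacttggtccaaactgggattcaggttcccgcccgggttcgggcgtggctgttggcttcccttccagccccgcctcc
The match began 145 bases before the start in Retnla and 144 bases before it in Capn9, and these letters were not found in the other 2 windows. Over the 250 bases before the start, searched on both strands since the motif is its own reverse complement, 5 of the 67 separated higher genes with a promoter entry held it (7.46%): Retnla, Capn9, Ccl17, Cd209e and Fcamr. It occurred for 6.76% of the 27025 genes with an entry, a share close to that of the separated genes.

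Other genes with large differences and at least 2 CPM came from several cell types. Adra2a, an adrenergic receptor, stood at 2.90, 10.6 and 4.03 CPM in the high libraries and at 1.72, 1.11, 2.59 and 1.23 CPM in the low ones (1.83 ± 0.47, and 1.08 without library 3). Fbp1, an enzyme of gluconeogenesis, stood at 1.85, 1.11 and 6.88 CPM against 0.93, 0.37, 0.78 and 0.62 CPM (2.34 ± 0.64, and 1.12 without library 5). Single libraries thus set the size of both differences. Ccna1, a cyclin, stood at 2.64, 2.60 and 1.01 CPM against 0.79, 0.37, 0.34 and 0.31 CPM (2.23 ± 0.47). The mitotic cyclin gene Ccnb1 stood at 3.83, 4.17 and 3.95 CPM against 1.59, 1.29, 1.55 and 2.55 CPM (1.17 ± 0.26), and it was the only separated gene of 17 cell cycle genes, whose median was 0.46. Aqp3, a water and glycerol channel, and Mcidas, a regulator of multiciliated cells, had log2 fold changes of 1.29 ± 0.38 and 1.23 ± 0.36. Mcidas was the 1 separated gene of 20 ciliated cell genes, but all 20 had a log2 fold change above 0, with a median of 0.32 against 0.005 over all genes. The part of ciliated cells in the goblet gene values was not tested. Deup1, which builds the centrioles of multiciliated cells and was not on that list, stood at 5.28, 9.18 and 4.28 CPM against 3.31, 2.21, 3.11 and 3.70 CPM (1.02 ± 0.28).

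Further separated genes were moderately abundant. Serpina3g, a protease inhibitor, stood at 14.5, 30.2 and 25.7 CPM in the high libraries and at 5.69, 11.1, 12.3 and 12.03 CPM in the low ones (1.18 ± 0.30). Ctsk, a collagen-degrading protease, stood at 24.8, 22.3 and 38.7 CPM against 16.01, 10.3, 16.7 and 13.3 CPM (1.03 ± 0.22). Timp1, an inhibitor of matrix metalloproteases, stood at 8.97, 9.18 and 6.72 CPM against 3.44, 2.49, 3.54 and 3.47 CPM (1.35 ± 0.19). All 3 high libraries were close together in Timp1, in contrast to the wide range of the mucus genes. Cd209e, a lectin of the DC-SIGN family, was counted 22 times against 3 (rate ratio 10.4, exact interval 3.13 to 54.3). Ptgdr, a receptor for prostaglandin D2, was counted 10 times against 2 (rate ratio 7.10, exact interval 1.51 to 66.6). Calca, the gene of the neuropeptide CGRP, made by pulmonary neuroendocrine cells, stood at 1.19, 1.30 and 0.59 CPM against 0.53, 0.37, 0.34 and 0.46 CPM (1.23 ± 0.44).

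Of 19 genes of club cells, the source of airway goblet cells, that passed, none was separated with higher levels. Of these 16 had a log2 fold change above 0, and the median was 0.25 against 0.005 over all genes. Scgb1a1 had a log2 fold change of 0.27 ± 0.19, Cyp2f2, a club cell cytochrome, 0.01 ± 0.18 and Cbr2, a carbonyl reductase, 0.03 ± 0.19. Scgb3a1, a secretoglobin of the larger airways, stood at 36.2, 134 and 94.2 CPM against 70.9, 35.3, 56.2 and 14.7 CPM and overlapped. The exception was Bpifa1, an antimicrobial protein of the upper airway, at 1.19, 8.81 and 5.63 CPM in the high libraries and 109, 37.7, 14.9 and 10.5 CPM in the low ones (-2.93 ± 1.16, and -1.94 without library 2). The low libraries alone ranged from 10.5 to 109 CPM, and the highest high library was barely below the lowest of them.

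The other lower genes were few and scarce, and 5 of the 18 averaged 2 CPM or more in the low libraries. Beside Bpifa1 these were Glrb, a glycine receptor subunit (-1.56 ± 0.41), Mylk3, the cardiac myosin light chain kinase (-1.14 ± 0.29), Mapk10, a stress kinase (-1.07 ± 0.31), and Kcnj5, a potassium channel of atrial muscle (-1.04 ± 0.26). Mylk3 stood at 4.88, 3.15 and 3.86 CPM against 8.47, 7.93, 5.35 and 12.6 CPM. Cardiac muscle, which lines pulmonary veins in mice and can be taken with the lung, differed in the same direction: the summed level of 11 cardiac genes was 185 to 464 CPM in the high libraries and 487 to 771 CPM in the low ones. All 10 of them that passed had a log2 fold change below 0, with a median of -0.69, and none was separated. The part of cardiac RNA in the Mylk3 and Kcnj5 values was not tested. Among the scarcer lower genes, Lep, the fat cell hormone leptin, was counted 4 times in the high libraries and 26 times in the low ones (-2.14 ± 0.74). Tnnt1, the slow skeletal muscle troponin T, stood at 0.26, 0.56 and 0.34 CPM against 1.32, 0.92, 1.12 and 1.003 CPM (-1.42 ± 0.42). Cdh26, a cadherin of inflamed epithelium, was counted in library 3 alone among the high libraries, at 0.37 CPM, against 0.46 to 0.74 CPM in the low ones.

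Markers of other tissues and airway regions bear on which part of the lung each library held. The summed levels of ciliated genes (933 to 1365 CPM against 839 to 1015 CPM), club genes and airway cartilage genes (87.7 to 124 CPM against 84.8 to 97.0 CPM) overlapped. So did that of the submucosal gland list (3136 to 5509 CPM against 3840 to 4996 CPM). That sum placed the 7 libraries in the same order as the alveolar type 2 list (20469 to 30180 CPM), and 10 of its 18 genes in the count table passed the filter. It is not read here as gland content, and the part of alveolar cells in it was not tested. The basal and squamous list did not overlap, at 44.3 to 48.9 CPM against 36.3 to 41.5 CPM, although its defining gene Krt5 had no read in the high libraries and 3 in the low ones. The cartilage gene Col2a1 had 2 reads against 4. Genes of protein folding in the endoplasmic reticulum had a summed level of 4390 to 4941 CPM against 3947 to 4324 CPM, without overlap, but none of the 24 was separated. Among these, the chaperone gene Manf stood at 57.7, 61.5 and 65.8 CPM against 43.5, 40.2, 46.7 and 47.4 CPM (0.47 ± 0.08). The clock gene Dbp spread from 3.61 to 30.6 CPM in the high libraries and from 4.31 to 37.04 CPM in the low ones, with the highest value of each in the first number range. Xist, made from the inactive X chromosome of females, stood at 758 to 1122 CPM in all 7 libraries.

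**Figure D3:**
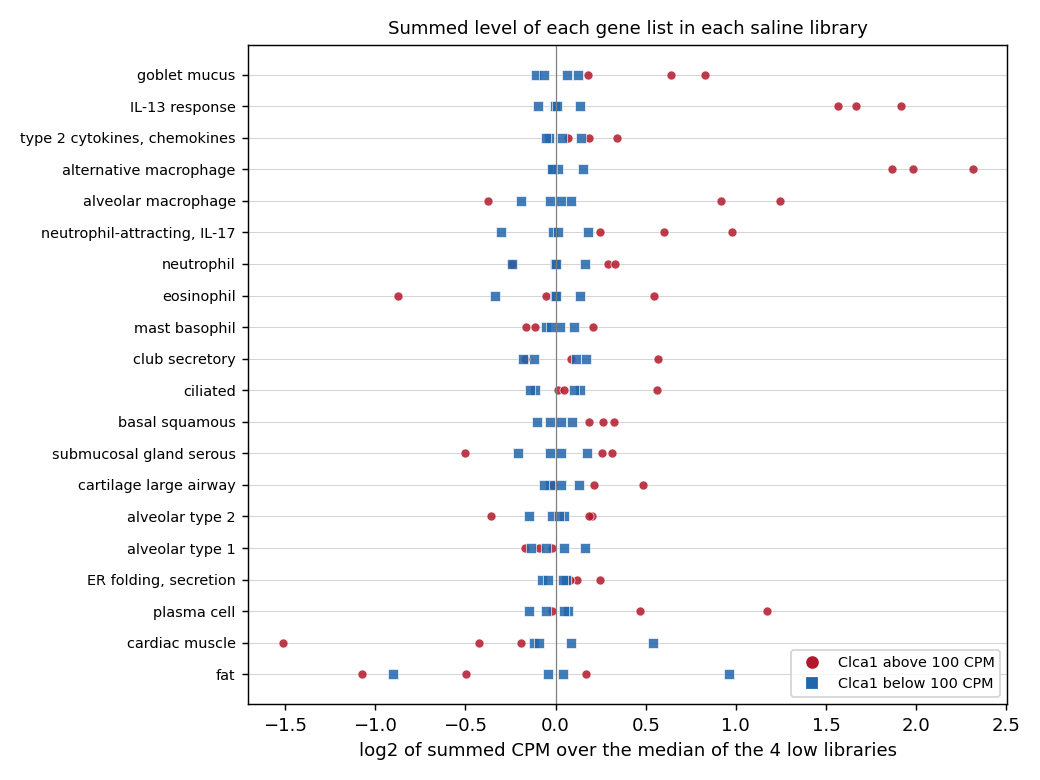
Summed CPM of 20 gene lists in each saline library, as log2 over the median of the 4 low libraries, with high libraries as red circles and low libraries as blue squares. The IL-13 response and alternatively activated macrophage lists lie at least 1.5 log2 units above that median in all 3 high libraries, which rests on Retnla, Chil3 and Chil4 in both lists. The cardiac list lies below it.

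Levels under HDM set the scale of these differences, and the same libraries serve as the only saline group of the series. Clca1 in TMM-scaled CPM was 329, 748 and 424 in the high saline libraries and 0.66 to 23.9 in the low ones. It had a lowest, median and highest level of 815, 1408 and 2127 CPM at 4 weeks of HDM and 109, 400 and 578 CPM at 15 weeks. With the isotype antibody these were 249, 430 and 603 CPM, and with anti-IL-33 47.7, 182 and 884 CPM. The high saline libraries thus lay within or above the range of the 15-week libraries, and all low ones lay below every HDM library. Muc5ac had levels of 15.1, 32.97 and 57.7 CPM at 4 weeks and 5.26, 15.5 and 26.4 CPM at 15 weeks. The 3 high saline libraries, and low library 6 at 5.78 CPM, lay within the span of these HDM libraries.

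Retnla had levels of 2232, 5182 and 15120 CPM at 4 weeks and 1011, 1930 and 3600 CPM at 15 weeks without antibody. Among the saline libraries only library 3 (1620 CPM) reached that 15-week range. With the isotype antibody the range was 689 to 4407 CPM, which also took in saline libraries 1 (767 CPM) and 5 (690 CPM). Fcgbp ran from 44.6 to 119 CPM at 15 weeks without antibody, and among the saline libraries only library 3 (69.2 CPM) reached that range. Slc26a4, Ccl11 and Il13 stayed below their range at 4 and 15 weeks of HDM without antibody in every saline library. Slc26a4 was at 492 to 708 CPM at 4 weeks and 361 to 815 CPM at 15 weeks, against at most 63.7 CPM in saline. Ccl11 was at 59.1 to 161 CPM and 24.2 to 83.6 CPM, against at most 7.61 CPM. Il13 was at 2.40 to 10.05 CPM and 0.82 to 3.08 CPM, against at most 0.40 CPM. With anti-IL-33 the ranges were 35.5 to 276 CPM for Slc26a4, 3.78 to 28.2 CPM for Ccl11 and 98.6 to 1582 CPM for Retnla, which include the levels of some high saline libraries.

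**Figure D4:**
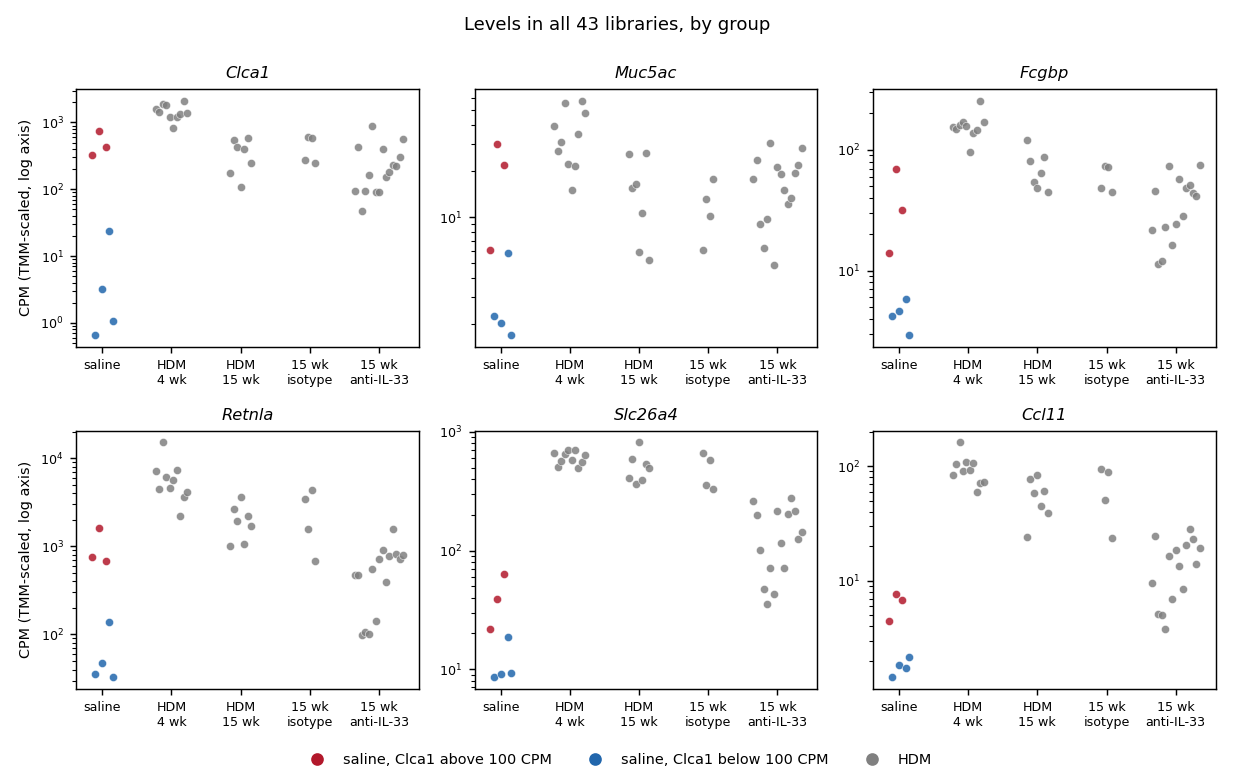
TMM-scaled CPM of 6 genes on log axes in all 43 libraries, 1 point per library, by group; saline libraries above 100 CPM of Clca1 are red, those below are blue, and HDM libraries are grey. For Clca1 and Muc5ac red points reach the 15-week HDM range, while for Slc26a4 and Ccl11 they lie below all 4-week and 15-week libraries given no antibody. For Fcgbp and Retnla only saline library 3 reaches the 15-week range without antibody.

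The 36 HDM libraries, which the grouping did not use, allowed a test of which genes go with Clca1 among exposed lungs. Their Clca1 ran from 47.7 to 2127 CPM, so no library was as low as the low saline ones. The slopes are therefore not a test of the saline difference. The slope of each gene on log2 Clca1 was tested by edgeR's quasi-likelihood test with terms for group and number range, so that a slope describes libraries of the same group. Of 15597 genes, 4 rose with Clca1 at a Benjamini-Hochberg adjusted p under 0.05 (0.0256%) and none fell (0%). At an unadjusted p under 0.05, 649 rose (4.16%) and 738 fell (4.73%), and by DESeq2's Wald test 6 rose and 2 fell after adjustment. Of the 81 genes separated with higher levels in saline, 3 rose: Fcgbp, Scin and Capn9. They are also 3 of the 32 goblet genes tested, of which no other passed. At an unadjusted p under 0.05, 11 of the 81 rose and 6 fell. Their median slope was 0.08, against -0.01 over all genes, and 48 of the 81 were above 0.

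Fcgbp rose by 0.54 ± 0.08 (SE) on the log2 scale per doubling of Clca1 (edgeR adjusted p = 0.000468). Scin rose by 0.57 ± 0.09 (edgeR adjusted p = 0.00227). Capn9 rose by 0.86 ± 0.15 (edgeR adjusted p = 0.0116). All 3 slopes were also above 0 within each number range, in the 4-week libraries and in the anti-IL-33 libraries, each taken alone. In the first range they were 0.48, 0.47 and 0.89 and in the second 0.69, 0.78 and 0.56, and no gene passed in either range. Of these subsets only the anti-IL-33 libraries gave a call, for Fcgbp with 0.60 (edgeR adjusted p = 0.00146). The fourth gene that rose, Cntn1, a neural adhesion protein (0.52 ± 0.10, edgeR adjusted p = 0.0346), was not separated in saline (-0.44 ± 0.29). Its adjusted p was 0.0862 without the 2 HDM libraries farthest in Clca1 and 0.0561, 0.0597 and 0.0721 without isotype libraries 1, 2 and 4.

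No other goblet gene passed after adjustment. Muc5ac had a slope of 0.43 ± 0.11 (unadjusted p = 0.000522, edgeR adjusted p = 0.533), and Agr2 had 0.29 ± 0.12 (edgeR adjusted p = 0.558). Slc26a4 and Pigr had slopes of -0.05 ± 0.13 and 0.09 ± 0.14. Dmbt1 had a slope of -0.63 ± 0.27 (edgeR adjusted p = 0.558), against its higher level in the saline libraries with high Clca1. Of the IL-13 response, type 2 and alternatively activated macrophage lists no gene passed. Chil4 had a slope of 0.89 ± 0.21 (edgeR adjusted p = 0.499) and passed by DESeq2's Wald test with 0.91. Retnla had 0.34 ± 0.19 (edgeR adjusted p = 0.578) and Ccl11 0.29 ± 0.13 (edgeR adjusted p = 0.558). Of the 18 genes separated with lower levels none fell, and Bpifa1 had a slope of 0.46 ± 0.36. Club and ciliated genes had median slopes of 0.17 and 0.13, and 10 of 19 and 8 of 20 had a slope above 0 at an unadjusted p under 0.05, none of them after adjustment. The goblet list had a lower median slope of 0.08, with 9 of 32 genes above 0 and 2 below 0 at that unadjusted threshold. Over all genes 4.16% rose at that threshold. Cardiac genes, lower in the high saline libraries, had a median slope of 0.21, with 6 of 10 above 0 at an unadjusted p under 0.05. Of the genes with the smallest p for a falling slope, Ntn5, Stoml1 and Clec16a had slopes of -0.35, -0.12 and -0.15 (edgeR adjusted p = 0.533 each), and none was separated in saline. The part of airway RNA content in the slopes of Fcgbp, Scin and Capn9 was not tested.

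**Figure D5:**
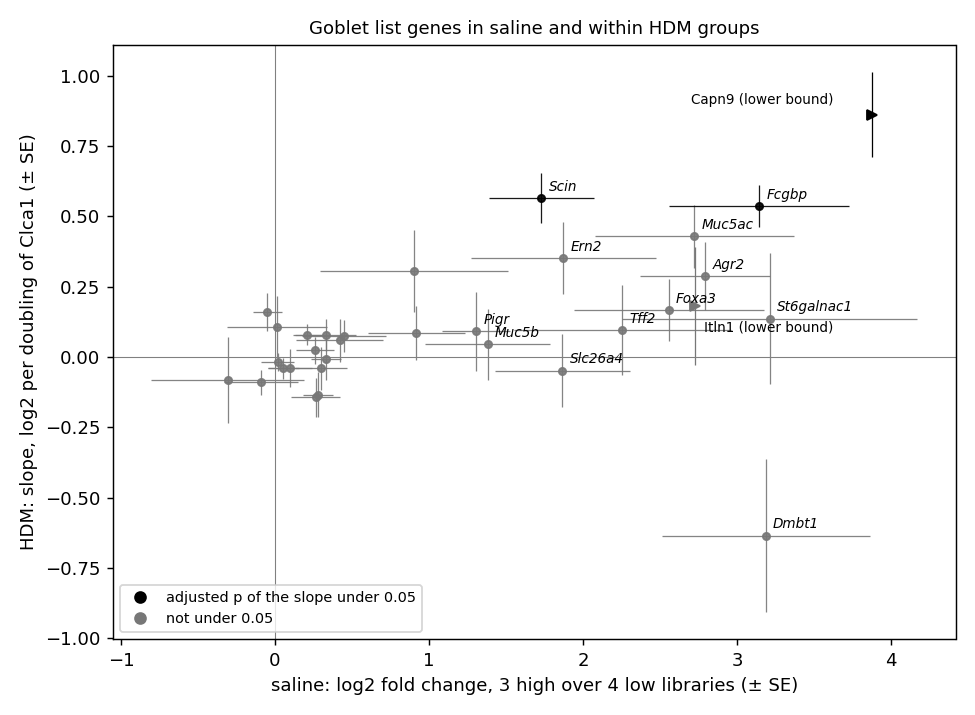
For each goblet list gene that passed the filter, the log2 fold change between high and low saline libraries (x axis) and the slope on log2 Clca1 in the HDM libraries (y axis), both ± SE. Capn9 and Itln1, not counted in the low saline libraries, are triangles at their lower bound on x, and black marks Fcgbp, Scin and Capn9, whose slopes had an adjusted p under 0.05.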

How the data were processed

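Per the labels' protocols, sequencing used strand-specific mRNA libraries from mouse lung, and per the submitters' processing notes the genome build was GRCm38. The values the authors deposited are unnormalized whole-number counts for each Entrez ID. Aligner, counting tool and strand setting: these are not named in the sources used here. Of 24475 IDs, 24375 were matched to GRCm38.p6 gene names and the 100 others held 2.62% of counts, which were kept in the totals.

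R 4.3.3 was used with edgeR 4.0.16 and DESeq2 1.42.0, and Python 3.11.15 with matplotlib 3.10.9. Library sizes were scaled by TMM over all 43 libraries, and filterByExpr left 15598 genes including Clca1. The saline fold changes came from an edgeR quasi-likelihood fit of the 7 saline libraries with no covariate, and separation used TMM-scaled CPM. The HDM slopes used log2 CPM of Clca1 with a prior count of 2 and were adjusted over all genes. Both fits were run on simulated data. The simulated saline differences were larger than the fold threshold used here, and grouping by a measured gene was not simulated. The groups, the 40 gene lists and the tests were chosen with earlier results of these data known. The depth of each library limits scarce genes, and count intervals are exact and cover counting error only. Named genes were the separated goblet genes, up to 12 higher and 8 lower genes with the largest fold change and at least 2 CPM, up to 3 separated genes per other list, a fixed set of names and the 5 smallest slope p-values in each direction. The remaining names were chosen after their values were seen, among them Chil3, Lcn2, Manf and Ccl22. Predicted and clone-named genes are not described. Some genes that the rule names are not reported here. Alternatives were other size factors, other filters and fold thresholds, single number ranges or groups, DESeq2 and leaving out libraries. List sums without Retnla, Chil3 and Chil4, and lower bounds with a library left out, were added after seeing the data.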

Additional observations from a re-analysis of the deposited data

Results flagged for a closer look

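Of 84 sets of values tested for 1 library far from the rest of its group, 16 were marked by Dixon's criterion. Chance marks about 1 in 20 groups picked without regard to their values. Many of the saline genes were named for differences among these same libraries, so the number of marks cannot be set against that rate. The sets were 54 named genes in the 7 saline libraries and 10 genes in each of the 4-week, 15-week and isotype groups. Saline library 3 was the highest in 8: Chil4 at 117 CPM, Scgb1a1 at 23800 CPM, Foxj1 at 158 CPM, Adra2a at 10.6 CPM, Cxcl5 at 7.98 CPM, Agr2 at 5.75 CPM, Capn9 at 2.04 CPM and the clone-named gene 0610039H22Rik at 0.649 CPM. Saline library 5 was the highest for Fbp1 at 6.88 CPM and for Il33 at 133 CPM. Saline library 1 was the highest for Il4 at 0.66 CPM, and library 2 for Bpifa1 at 109 CPM. At 4 weeks of HDM, replicate 3 was the highest for Retnla at 15100 CPM, Ccl11 at 161 CPM and Agr2 at 31.6 CPM, and replicate 9 for Fcgbp at 256 CPM.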

How the results depend on the processing

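Fewer libraries have to stay apart when 1 is left out, so the rule is easier to meet. Leaving out each saline library in turn gave 99 to 168 higher and 26 to 74 lower genes, of which 70 to 77 and 15 to 18 were among the 81 and 18. The second number range alone gave 187 and 58. No filter beyond 1 count gave 137 and 62, at least 30 counts over the saline libraries gave 61 and 20, and a fold of at least 1.5 gave 166 and 59. Other size factors gave 78 to 80 and 18. In the first range alone there was 1 high and 1 low library, and no count was made. In the HDM libraries 0 genes rose in the first number range alone, in the second alone and in the 4-week libraries alone, so 0 of the 81 rose there. In the anti-IL-33 libraries alone 1 gene rose, and it was 1 of the 81. DESeq2's Wald test gave 6 rising genes, 5 of them among the 81, and 2 falling. Leaving out isotype libraries gave 3 to 4 rising genes. That alternative, and leaving out replicate 1 of 15 weeks with replicate 3 of 4 weeks (5 rising), were chosen after seeing the data. No paired analysis was possible because the labels give no replicate numbers. Genes with few reads, such as Il13 and Capn9, are limited by depth.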
